A study of Mus musculus with 32 samples.

Results

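The Peg10, Sgce and Asb4 domain is a cluster of imprinted genes on the proximal part of mouse chromosome 6. Its 7 genes, Peg10, Sgce, Ppp1r9a, Asb4, Calcr, Casd1 and Dlx5, were taken by symbol from the transcript tables, where they are 7 of 18501 symbols, and the 470 bases that the genomic tables place at chr6:3500000-6900000 (mm9) were added. RNA came mainly from F1 mice bred between the wild-derived strain CAST/EiJ (CAST) and the common laboratory strain C57BL/6J (B6). F1i mice had a CAST mother and a B6 father, and F1r mice a B6 mother and a CAST father. Whole brain of embryonic day 15 (E15) gave 1 pool of 4 to 5 individuals per cross, while 2 regions of mice aged 5 weeks, the hypothalamic preoptic area (POA) and medial prefrontal cortex (PFC), gave single-sex pools of 8 to 10 animals, 1 of each sex per cross. E15 libraries of the inbred CAST and B6 strains, 2 technical replicates summed to 1 sample per strain, were used beside the F1 pools for comparison. The labels name no engineered allele and no treatment in any group. All 7 genes were listed in E15 and POA and 5 in PFC, where Asb4 and Calcr were missing, and every listed member passed the minimum of 20 informative reads per pool on average.

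Genomic imprinting silences a gene on the chromosome inherited from one parent, by marks such as DNA methylation that are set in the germ line. In this domain Peg10, a gene derived from a retrotransposon that the placenta needs, and Sgce, which encodes the membrane protein epsilon-sarcoglycan and is mutated in a movement disorder, are known as paternally expressed genes that start back to back at a shared CpG-rich promoter. Around them lie genes reported as maternally expressed in some tissues: Asb4, a substrate adaptor of ubiquitin ligases expressed in the hypothalamus, Calcr, the calcitonin receptor, and Ppp1r9a, which encodes the actin-binding synaptic scaffold neurabin. Casd1, an enzyme that acetylates sialic acids, and Dlx5, a homeobox factor of GABAergic neurons, complete the set.

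The stretch between the annotated starts of Sgce and Peg10 is shown because both paternally read genes begin at its ends. It spans chr6:4697205-4697305 (NCBIM37, the assembly also named mm9), 101 bases on the plus strand, with the CG dinucleotides in capitals.
Sgce to Peg10: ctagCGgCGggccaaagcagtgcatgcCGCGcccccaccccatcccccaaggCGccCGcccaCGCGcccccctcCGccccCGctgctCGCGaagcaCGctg
It holds 13 CG at a G and C content of 78.2%. Of 32844 RefSeq promoter windows of the same length (mouse assembly GRCm38.p6, the bases just before each gene start), 9.70% held as many or more, and the median was 3. No base of this stretch was among the listed ones, so the reads give no allele there.

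Each allele was told apart at single bases in the transcripts, and the base with most reads in each gene is shown with 14 bases on either side, in the gene's own direction. The capital is the base that differs, as B6 has it, and the substitution counts from 1 at the left end, B6 base first.
Peg10: tgtcacacatcatcGacatcccgcatccc
Sgce: caccctgtaactggAgaggttatacctcc
Ppp1r9a: tctactttagcactCgatcgaagcctgcc
Asb4: ggacctccagggttGaatgtttaaaaggg
Calcr: cctgactacttcccGgactttgacacagc
Casd1: gtggaatgagagacTgttatgtctttaac
Dlx5: tgggagccccagggCtcatcccgctctct
The CAST chromosome differs by G15A in Peg10 (position chr6:4709371), A15G in Sgce (4639647), C15T in Ppp1r9a (5112751), G15T in Asb4 (5381715), G15A in Calcr (3667108), T15C in Casd1 (4592614) and C15T in Dlx5 (6828345). The bases of Sgce, Calcr and Dlx5 lie in coding exons and the other 4 in untranslated or noncoding exon sequence. Over all pools that list them, the mother's base was read 9 times in 2037 reads of Peg10, 8 in 568 of Sgce, 768 in 1444 of Ppp1r9a, 243 in 265 of Asb4, 197 in 201 of Calcr, 735 in 1388 of Casd1 and 171 in 341 of Dlx5. These 7 bases thus already show the 3 behaviours of the domain: nearly all paternal, nearly all maternal and read from both chromosomes.

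Reads that tell the strains apart, called informative below, numbered 11228132 and 11744159 in the E15 pools and 3585508 to 7664426 in the adult pools. A gene's maternal share is the percent of its informative reads with the mother's base, that of CAST in F1i and of B6 in F1r. The median autosomal gene had a maternal share between 47.2% and 51.9% in every pool, higher in F1r than in F1i in each region. X-linked reads were 97.4% maternal in the E15 F1i pool and 44.7% in the E15 F1r pool, and the labels do not give the sex of the embryos. Adult male pools had 96.2% to 98.9%, F1i female pools 68.0% and 74.2% and F1r female pools 31.6% and 37.7%. The E15 pools thus appear to differ in sex make-up, and there cross and sex cannot be told apart. Intervals and limits on single pools cover counting error only, since reads without molecular identifiers are not independent molecules. Each adult region has 1 male and 1 female pool per cross, so p-values measure the spread between these pools alone.

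Peg10 and Sgce, the divergent pair, were read almost wholly from the father's chromosome in every pool. In E15 the maternal reads of Peg10 (chr6:4697306-4710514, plus strand) were 15 of 2216 in F1i and 39 of 1868 in F1r, or 0.677% and 2.09%. In POA they were 0 of 1261 in the F1i male pool, 8 of 2398 in the F1i female, 8 of 1194 in the F1r male and 10 of 1915 in the F1r female, at most 0.670%, and the 0 allows a share of up to 0.238%. In PFC 1 maternal read was found, in the F1r male pool among 75, and the other 3 pools had 0 of 74, 77 and 80, which allow up to 4.05%, 3.90% and 3.75%. The gene was thus far below an even share of 50% in all 10 pools, with the highest share in the embryonic F1r pool. All of its 15 listed bases in E15, 13 in POA and 8 in PFC lay below 50% in both crosses.

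For Sgce (chr6:4624350-4697204, minus strand) the adult reads came from the same 2 bases in both regions. POA had 0 of 55 maternal reads in the F1i male pool, 1 of 114 in the F1i female, 0 of 37 in the F1r male and 3 of 102 in the F1r female. PFC had 0 of 53, 0 of 82, 3 of 51 and 1 of 78 in the same order. No adult pool therefore exceeded 5.88%. In E15 the summed share was higher, 12 of 238 reads in F1i and 11 of 146 in F1r, but it differed between parts of the transcript. At the 2 bases shared with the adult tables it was 0 of 212 and 8 of 134, while 3 further bases of the listed transcript, which could not be placed on the assembly, had 12 maternal reads of 26 in F1i and 3 of 12 in F1r. The genomic table, which places its reads on the assembly, gave 17 maternal reads of 930 over 35 bases of Sgce, or 1.83%. Of these, 28 bases lay in introns and had 3 maternal reads of 290, beside 196 of 393 in the introns of Casd1 on one side and 166 of 358 in those of Ppp1r9a on the other.

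**Figure D1:**
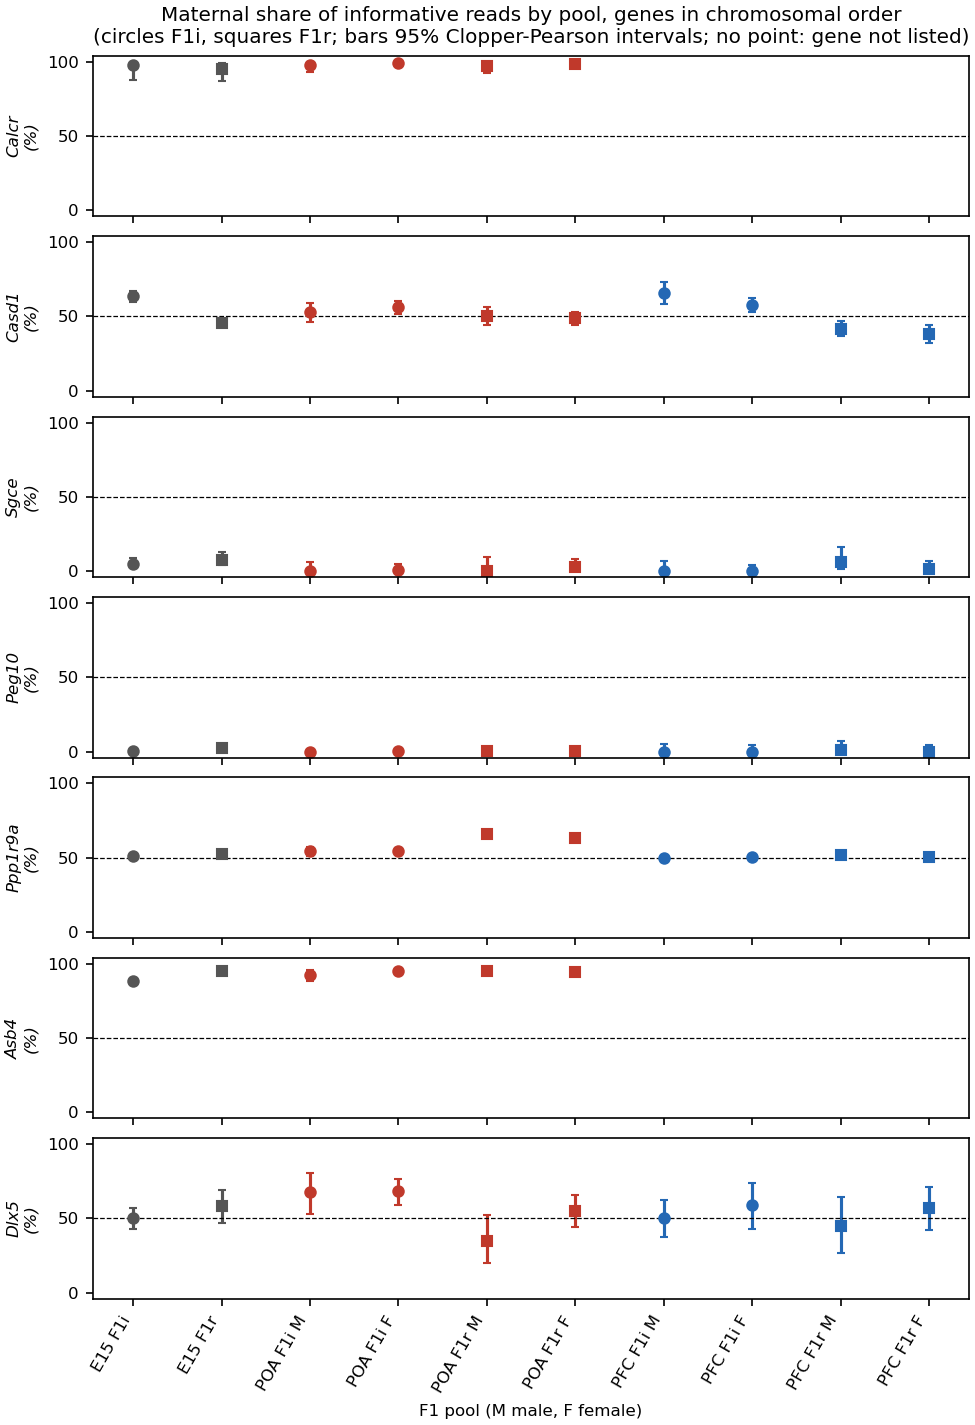
Maternal share of informative reads (percent) of the 7 genes in each F1 pool, in the order of the genes along the chromosome, with circles for F1i, squares for F1r and bars for 95% Clopper-Pearson intervals. Sgce and Peg10 lie near 0 in all 10 pools, Calcr and Asb4 near 100 in the 6 pools that list them, and the squares of Ppp1r9a stand at 65.7 and 63.3 in POA.

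Asb4 and Calcr, on opposite sides of the pair, were read mainly from the mother. Asb4 (chr6:5333386-5383022, plus strand) starts 636 kb beyond the Peg10 start and was 88.5% maternal in the F1i and 94.9% in the F1r pool of E15. In POA it was 92.4% maternal in the F1i male pool, 95% in the F1i female, 95% in the F1r male and 94.6% in the F1r female. Its share was thus high in all 6 pools but short of complete, and every one of the 28 listed bases in E15 and 31 in POA was above 50% over the summed reads. In both crosses at once this held for 26 of the 28 bases in E15 and for all 31 in POA. The exceptions were bases 2678 and 2680 of the listed transcript, at 36.4% and 50% in the E15 F1i pool. The paternal reads of the E15 F1i pool carry the B6 base, and the same base made up 12 of 272 reads of the CAST parental library at Asb4 (4.41%), while the CAST base made up 1 of 381 reads of the B6 library. The part of such reads in the paternal share was not tested.

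Calcr (chr6:3635677-3714713, minus strand), whose start lies 983 kb before that of Peg10, was 97.6% and 95.2% maternal in the E15 pools, from 42 and 63 reads. In POA the shares were 97.5% and 99.3% in the F1i male and female pools and 97.1% and 98.5% in the F1r male and female pools, from 122 to 293 reads. All 8 listed bases in POA lay between 93.3% and 99.3%. In the genomic data, 3 intronic bases of Calcr with 10 to 13 reads showed the CAST base alone in both crosses of POA, a pattern of strain and not of parent. Neither Asb4 nor Calcr is listed in PFC, by transcript or by genomic base. Every base in the tables had at least 1 read in each pool of its region, so a gene with no read in 1 pool would be missing. The allele use of both genes in PFC is unknown here.

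The E15 pools were compared by Fisher's exact test and the adult pools by edgeR's quasi-likelihood test of the allele counts between crosses, to ask which genes are read unequally from the parents. A gene was called when the Benjamini-Hochberg adjusted p over all genes was under 0.05 and F1i and F1r both leaned to the same parent. In E15, where 5.78% of all genes tested were called on counting error alone, 5 of the 7 members were called, Peg10 and Sgce paternal and Asb4, Calcr and Ppp1r9a maternal. Casd1 passed on adjusted p there (Fisher's exact test, 0.00304), but it leaned maternal in F1i and paternal in F1r and was not called. In an edgeR fit of all 10 pools, which has no value for Asb4 and Calcr, 2 members were called in E15, Peg10 and Sgce. The spread in that fit comes from the 8 adult pools, since 1 pool per cross leaves none in E15. In POA the same 5 were called as in the E15 test, against 0.396% of genes tested. In PFC Peg10 and Sgce were called, 2 of 5 members, against 0.282%, and in all 8 adult pools together the same 2 of 5, against 0.404%. The log2 value gives the CAST to B6 ratio in F1i over that in F1r and is positive where the mother's allele is higher. In POA it was 8.14 ± 0.26 (approximate SE) for Asb4 (edgeR adjusted p = 0.000653) and 11.69 ± 0.56 for Calcr (edgeR adjusted p = 0.00285). For edgeR values this SE is the size of the log2 value over the square root of the test's F statistic. It can understate the error where the minor allele has few reads, as in Calcr, where 734 of 746 POA reads were maternal. The edgeR adjusted p was 0.00511 for Peg10 and 0.0115 for Sgce in POA, and 0.0216 and 0.0373 in PFC. Their log2 values rest on a few maternal reads or none and are not given.

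With X-linked genes in the fit, several of these calls depended on single pools. Without the POA F1i male or the POA F1i female pool Calcr and Sgce lost their call in POA (edgeR adjusted p up to 0.0954 and 0.396), and without either PFC F1i pool Peg10 and Sgce lost theirs (up to 0.240 and 0.390), Sgce also without the PFC F1r female pool. The pool-by-pool fits were repeated on autosomal genes alone, a choice made after the data were seen. There all 5 members in POA and both in PFC were called without any one pool, at edgeR adjusted p of at most 0.000725 (Ppp1r9a) in POA and 2.04e-06 (Sgce) in PFC.

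**Figure D2:**
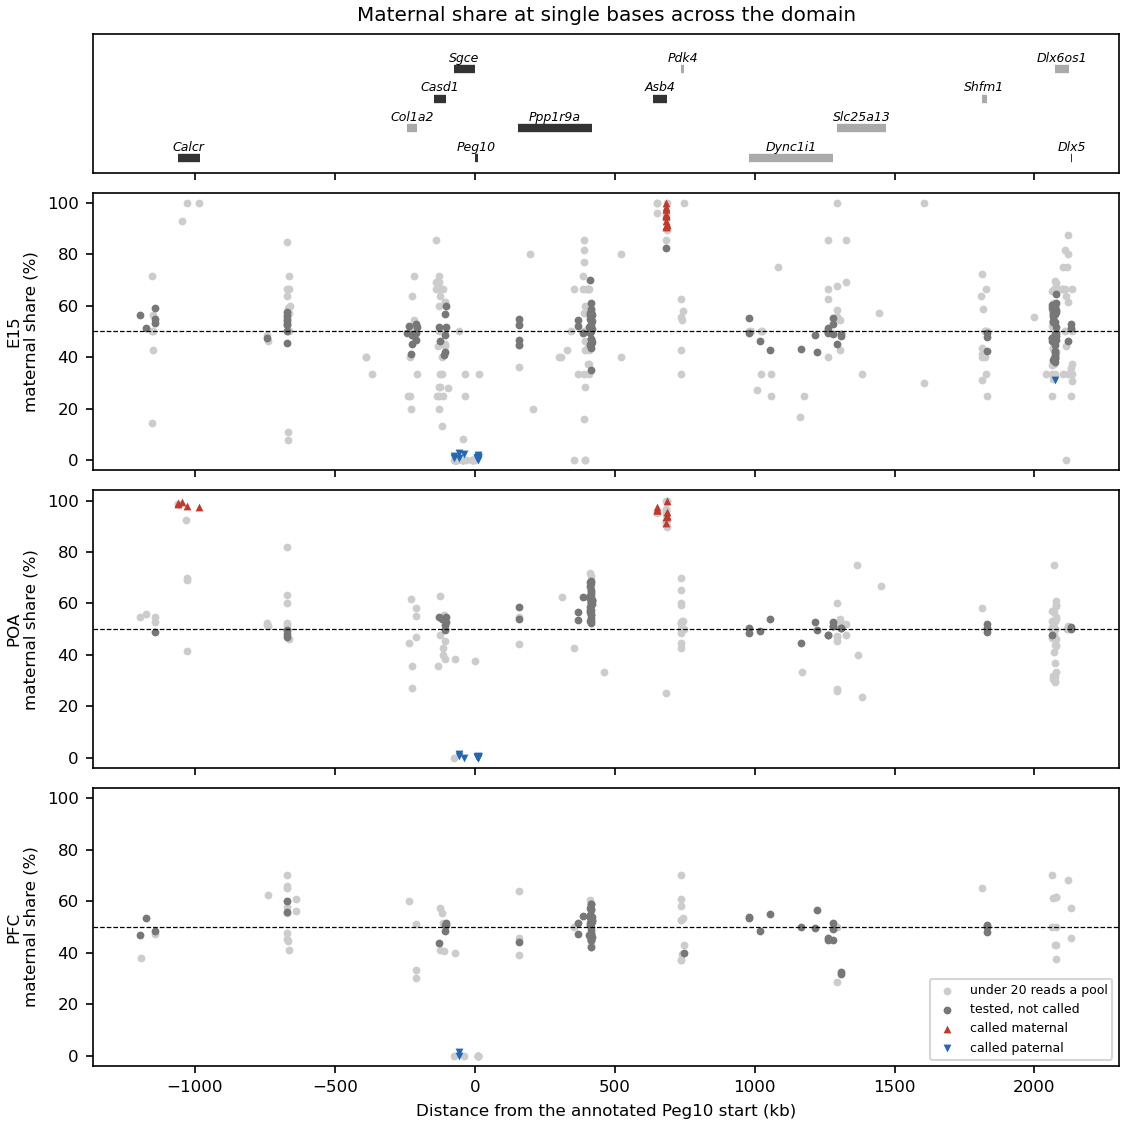
Maternal share (percent, reads of all pools of a region summed) at each listed genomic base against its distance from the Peg10 start in kb, for E15, POA and PFC, below a map of the genes with the 7 members in black. Paternal calls cluster at Sgce and Peg10 in E15 and POA, while in PFC they lie in Sgce alone. Maternal calls stand at Asb4 in E15 and POA and at Calcr in POA, with most of the tested bases between them near 50.

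Base by base, calls fell in 4 of the members and in 1 noncoding transcript. The genomic table lists 415 bases of the window in E15, 228 in POA and 135 in PFC, of which 156, 91 and 65 had enough reads for a test. In E15 31 were called, against 2.74% of all genomic bases tested, 14 of them maternal (1.96% of all) and 17 paternal (0.782%). The maternal ones were all in Asb4, 14 of its 15 tested bases, and the paternal ones were 5 of 5 tested in Sgce, 11 of 11 in Peg10 and 1 of 18 in Dlx6os1, the noncoding transcript beside Dlx5. In POA 29 were called, against 0.755%. As maternal these were 10 of 10 in Asb4 and 5 of 5 in Calcr, against 0.385%, and as paternal 3 of 3 in Sgce and 11 of 11 in Peg10, against 0.37%. In PFC 0 were called maternal, against 0.308%, and 2 paternal, against 0.256% (0.563% in either direction), the tested bases of Sgce, and no base of Peg10 had enough reads. No tested base of Casd1, which ends before Sgce, or of Ppp1r9a, which starts 156 kb beyond the Peg10 start, was called in any region, and neither was one between genes. In E15 the bases chr6:4592614 of Casd1 and chr6:5113508 of Ppp1r9a did pass on adjusted p (Fisher's exact test, 0.00124 and 0.000866). Both leaned to the mother in F1i and to the father in F1r, and so were not called. Bases of a gene share pools and, where close together, reads, and are not independent.

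The Dlx6os1 base, at chr6:6772236, was 36.6% maternal in F1i and 25.6% in F1r over 84 reads (Fisher's exact test, adjusted p = 0.0207). The other tested bases of that transcript were not called, and over its 37 bases in E15 the maternal share was 48.3%.

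Ppp1r9a (chr6:4853004-5115661, plus strand) was read from both chromosomes everywhere, with more maternal reads in POA than elsewhere. The maternal share was 51.3% and 52.4% in the E15 F1i and F1r pools. In POA it was 54.2% in the F1i male pool, 54.8% in the F1i female, 65.7% in the F1r male and 63.3% in the F1r female. In PFC the same pools had 49.6%, 50.7%, 51.8% and 50.7%. All POA values lay above all PFC values, and within POA both F1r pools lay above both F1i pools. For pools of the same cross and sex the difference between POA and PFC was 4.63 and 4.08 percentage points in F1i males and females and 13.9 and 12.6 in F1r males and females.

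The allele by cross by region term of edgeR was 1.03 ± 0.13 in log2 for Ppp1r9a (adjusted p = 2.81e-05), the single member of 5 that differed between regions, against 0.311% of autosomal genes tested. The call held without any one of the 8 pools. It ended with X-linked genes in the fit, at the same size of 1.04 ± 0.12 (edgeR adjusted p = 0.0835), and with the deepest base of each gene alone, at 0.55 ± 0.45 (edgeR adjusted p = 0.977). In POA itself the log2 value was 1.12 ± 0.08 (edgeR adjusted p = 0.0154), and it was lost with the deepest base alone (adjusted p = 0.649, log2 1.13) and without the POA F1i male, F1i female or F1r male pool (edgeR adjusted p up to 0.452). In PFC the value was 0.08 (edgeR adjusted p = 0.975). The maternal share was also compared between POA and PFC pools after the values were seen. An exact two-sided permutation test gave p = 0.0286, or 0.0857 adjusted over 6 comparisons. With 4 against 4 pools, 0.0286 is the smallest p it can give. Some bases of the gene were read unevenly by strain, such as base 8144 of the listed transcript in POA, with a CAST share of 19.6% in F1i and 8.15% in F1r. Leaving out the bases whose CAST share was on the same side of 35% to 65% in both crosses of any region, a choice made after the values were seen, kept both calls. The region term was then 0.94 ± 0.14 (edgeR adjusted p = 0.000464) and the value in POA 1.05 ± 0.08 (edgeR adjusted p = 0.0185). At the 33 POA bases that remained, 1606 of 2816 reads were maternal in F1i, and 60.7% of 3088 in F1r, so the gap between the crosses was smaller there than over all 46 bases.

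**Figure D3:**
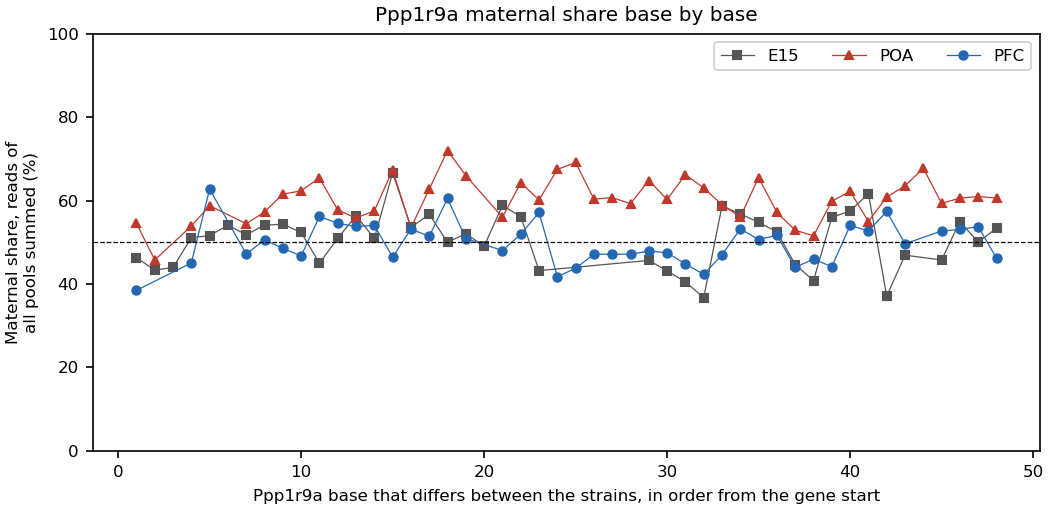
Maternal share (percent, reads of all pools of a region summed) at each base of Ppp1r9a that differs between the strains, in order from the gene start, for E15, POA and PFC. Only bases placed on the assembly are drawn, 45 of the 46 in POA. The POA points lie above 50 save the lowest, at 45.8, whereas those of PFC and E15 scatter around it.

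The maternal lean of Ppp1r9a in POA was seen along the whole transcript. Over the summed reads 45 of its 46 listed bases were above 50% in POA, with a median of 60.5% and a range of 45.8% to 72.0%. In PFC 21 of 43 bases were above 50%, with a median of 49.7%, and in E15 25 of 42, with a median of 51.7%. At the 38 bases listed in all 3 regions the count was 38 in POA, 21 in PFC and 24 in E15. In both crosses at once, 26 of the 46 POA bases lay above 50% and none below. The coding exons had 575 maternal reads of 970 in POA, or 59.3%, and the untranslated and noncoding exon bases 3638 of 6095, or 59.7%.

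The maternal call of Ppp1r9a in E15, at a log2 of 0.21 ± 0.07 (Fisher's exact test, adjusted p = 0.0311), did not hold under every setting. The median autosomal gene of the same pools had a log2 of 0.03, and against that odds ratio the same 0.21 missed the threshold (Fisher's exact test, adjusted p = 0.0887). With the spread of all 10 pools in edgeR the adjusted p was 1 at a log2 of 0.21. Fisher's exact test gave an adjusted p of 0.567 at 0.35 with the deepest base alone and 0.140 at 0.17 without the bases of uneven strain share.

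Casd1 (chr6:4550840-4593381, plus strand), the gene just outside Sgce, showed a lean by strain in E15 and PFC that lay mostly in 1 base. Its CAST share over all bases was 63.5% in the F1i and 54.2% in the F1r pool of E15. In POA it was 52.8%, 56.1%, 49.5% and 51.3% in the F1i male, F1i female, F1r male and F1r female pools, and in PFC 66.1%, 57.8%, 58.5% and 61.9%. Every pool but the POA F1r male had more CAST than B6 reads. The base at chr6:4592614, the one with most reads, had a CAST share of 82.8% and 66.7% in the F1i and F1r pools of E15, and the other 10 bases 48.9% and 50.3%. In PFC this base had 292 CAST reads of 413, or 70.7%, and the other 8 bases 470 of 856, or 54.9%. In POA it stood at 52.5% and the others at 52.9%. The mean over PFC was 61.1% ± 3.79 (SD, n = 4) and over POA 52.4% ± 2.79, with no overlap between regions. An exact two-sided permutation test of this difference, chosen after the values were seen, gave p = 0.0286, the smallest that 4 against 4 pools can give, or 0.0857 adjusted over the 6 comparisons of this kind (CAST and maternal share of Casd1, Ppp1r9a and Dlx5). The strain effect in PFC was 0.64 ± 0.11 in log2 CAST over B6 (edgeR adjusted p = 0.0166), 1 of 5 members called, against 22.3% of genes tested. With the deepest base alone, the same one, it was 1.31 ± 0.16, and without it 0.32 ± 0.10, where the call was lost (edgeR adjusted p = 0.0815). In POA the strain effect of Casd1 was 0.14 (edgeR adjusted p = 0.226).

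In POA the single member called for strain, against 13.1% of genes tested, was Ppp1r9a, with B6 higher by 0.30 ± 0.04 in log2 (-0.30, edgeR adjusted p = 0.0193). Both shares of members called were near that of all genes, and both calls were lost when single pools were left out: the Casd1 call without the PFC F1i male, F1i female or F1r female pool (edgeR adjusted p up to 0.0944) and the Ppp1r9a call without any one of the POA pools. For Ppp1r9a it was also lost with the deepest base alone and, at -0.11, without the bases of uneven strain share (edgeR adjusted p = 0.146).

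**Figure D4:**
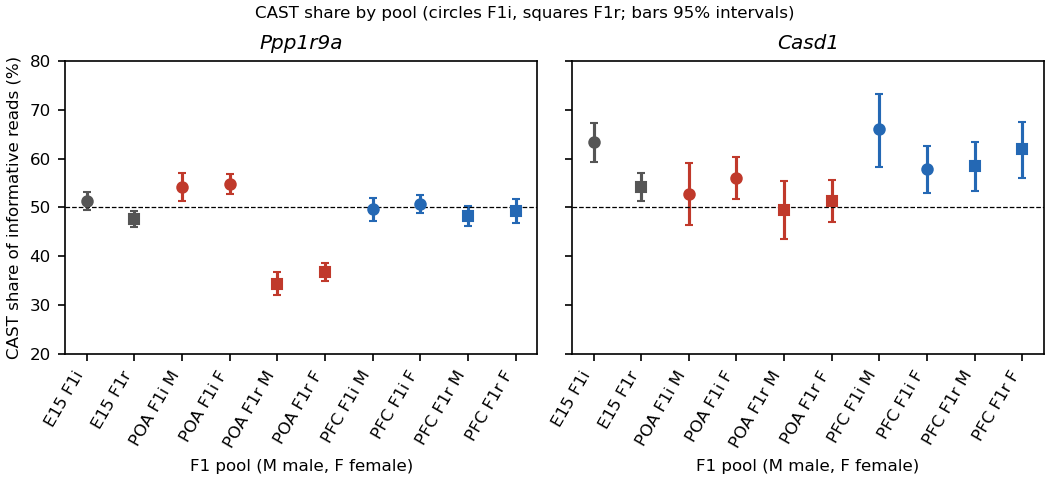
CAST share of informative reads (percent) of Ppp1r9a and Casd1 in each F1 pool, with circles for F1i, squares for F1r and bars for 95% Clopper-Pearson intervals. Ppp1r9a splits by cross in POA, at 54.2% and 54.8% in F1i and 34.3% and 36.7% in F1r, whereas Casd1 lies at 57.8% or more in every PFC pool.

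Dlx5 (chr6:6827805-6832085, minus strand), at the far end of the window, was not called in any region. Its maternal share was 50% and 58.3% in E15, 68.0%, 68.3%, 35.1% and 55.1% in the F1i male, F1i female, F1r male and F1r female pools of POA, and 50%, 59.1%, 44.8% and 57.1% in PFC. The high F1i values of POA came from 2 adjoining variable bases, 14 and 16 of the listed transcript, which could not be placed on the assembly. There 64 of 65 F1i reads carried the mother's CAST base, against 9 of 19 F1r reads with the mother's B6 base. At the 2 bases listed in all 3 regions the maternal reads were 109 of 218 in POA and 74 of 143 in PFC. The gene was thus even at its most deeply read bases, and the split of the other 2 was not seen in PFC, where they had 17 of 33 maternal reads in F1i and 8 of 10 in F1r.

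Of the other 28 symbols searched along the domain, which include alternative names, 15 were listed in E15 with 13 past the minimum of reads, 13 in POA with 13 and 13 in PFC with 11. None of them was called in any region, at adjusted p of at least 0.159 in E15 (Fisher's exact test) and 0.941 in POA and 0.963 in PFC (edgeR). Of those past the minimum, mean maternal shares ran from 46.1% to 57.7% in E15, from 45.0% to 53.4% in POA and from 45.4% to 52.7% in PFC, while single POA pools ranged from 24.2% to 76.8%. They include Col1a2, a collagen gene, and Bet1, a vesicle transport gene, between Calcr and Casd1, and Pdk4, a kinase of pyruvate metabolism, and Dync1i1, a dynein subunit, beyond Asb4.

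In total level, both alleles together, Peg10 was far higher in POA and E15 than in PFC, while Sgce passed no test between tissues. Levels are RPM per listed base, a gene's informative reads scaled to the pool's total and divided by its number of listed bases, which can be compared between genes only roughly, since bases differ in how well they are covered. Peg10 stood at 13.2 and 10.6 in E15, at 27.1, 25.5, 22.6 and 19.2 in the F1i male, F1i female, F1r male and F1r female pools of POA and at 1.87, 1.29, 1.82 and 1.64 in those of PFC. Every POA pool was thus above both E15 pools, and these above every PFC pool. Sgce stood at 4.24 and 2.49 in E15, at 7.67, 7.88, 4.56 and 6.65 in POA and at 5.35, 5.50, 4.95 and 6.40 in PFC. Both E15 pools were below every adult pool on this scale, while POA and PFC overlapped. The E15 level is divided by 5 bases, of which 3 were hardly read, and over the 2 bases shared with the adult tables it was 9.44 in F1i and 5.70 in F1r.

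**Figure D5:**
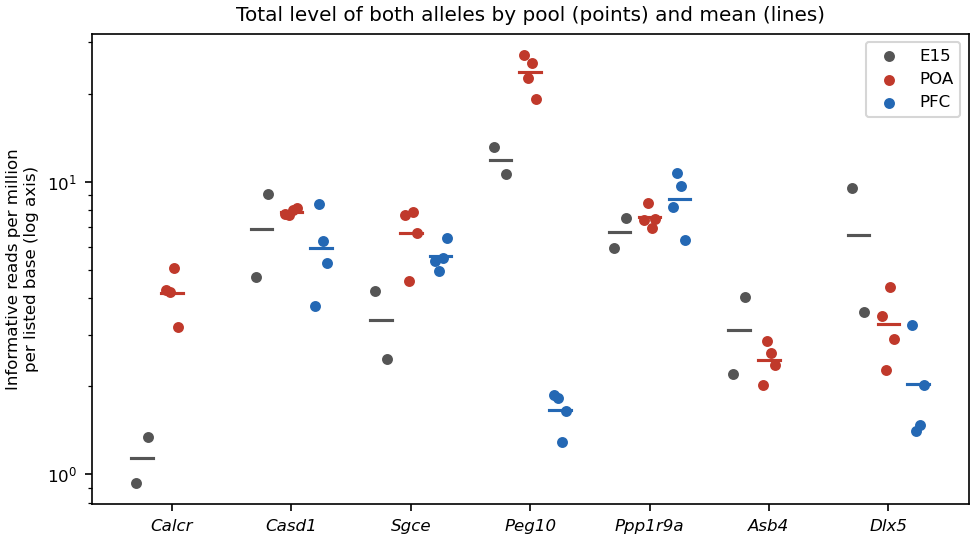
Total level of the 7 genes in RPM per listed base (log axis), with a point per F1 pool and a line at the mean of E15, POA and PFC. Peg10 covers the widest range, from 1.29 in a PFC pool to 27.1 in a POA pool.

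Peg10 was 4.25 ± 0.14 in log2 higher in POA than in PFC (edgeR adjusted p = 4.03e-10), or 3.78 ± 0.14 over the bases listed in both. It was 3.35 ± 0.22 higher in E15 than in PFC (edgeR adjusted p = 3.57e-07) and 0.91 ± 0.13 lower in E15 than in POA (-0.91, edgeR adjusted p = 0.000121). Under the alternatives the value of E15 against PFC ran from 3.02 to 3.62. Sgce passed none of these tests, at -0.03, 0.17 and 0.16 in the same order (edgeR adjusted p = 0.913, 0.616 and 0.525), and the difference between the 2 genes was not itself tested. Calcr stood at 0.935 and 1.34 RPM per base in E15 and at 3.18 to 5.06 in POA, a ratio of means of 3.66. The summed reads, over 4 bases in E15 and 8 in POA, gave a log2 difference of -2.98 ± 0.27 (edgeR adjusted p = 3.65e-06), and the bases listed in both -2.28 ± 0.30 (edgeR adjusted p = 8.02e-05). Asb4 had 2.20 and 4.04 in E15 and 2.02 to 2.86 in POA and passed no test (log2 0.02, edgeR adjusted p = 0.933). In all, 2 of 5 members differed between POA and PFC, 3 of 7 between E15 and POA and 2 of 5 between E15 and PFC, against 61.7%, 69.0% and 61.7% of genes tested.

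Ppp1r9a was among them each time, lower in POA than in PFC (-0.39 ± 0.14, edgeR adjusted p = 0.0265) and lower in E15 than in POA (-0.44 ± 0.13, edgeR adjusted p = 0.0102) or PFC (-0.83 ± 0.23, edgeR adjusted p = 0.00966). The first of these was lost without any one of the 4 POA pools, the PFC F1r male or the PFC F1i female pool, the second with the bases listed in both tables (adjusted p = 0.145) and the third without the E15 F1i pool (adjusted p = 0.108). Casd1 and Dlx5 passed no test of level, with adjusted p from 0.156 to 0.886. The 2 E15 pools differed in the level of both: Casd1 stood at 4.72 in F1i and 9.09 in F1r, and Dlx5 at 9.53 and 3.58.

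The tissues also differed in their cell types. Markers of preoptic and hypothalamic neurons were listed for 7 of 8 genes in POA, at a sum of 236 to 304 RPM, and for 1 of 8 in PFC, at 0.493 to 2.62, where Gal, Nts, Hmx3, Hcrt, Avp, Oxt and Gnrh1 were not listed. Markers of cortical excitatory neurons were listed for 2 of 5 genes in POA, at 6.65 to 11.1, and for 4 of 5 in PFC, at 2517 to 3726, Emx1 being listed in neither. The GABAergic list stood at 2227 to 2500 in POA and 470 to 483 in PFC, the striatal one at 397 to 498 and 50.9 to 96.6, and the oligodendrocyte one at 6552 to 7017 and 1105 to 3530. E15 stood apart from both: progenitor and immature neuron markers summed to 1958 to 2043 there, 124 to 160 in POA and 74.7 to 107 in PFC. Choroid plexus markers summed to 1894 to 2450 in E15 and 1.83 to 4.18 in POA, with none listed in PFC, and the preoptic list to 13.4 to 21.0 in E15. In such bulk RNA, fewer cells of a type and less RNA per cell cannot be told apart, and the part of these cell types in the values of Peg10, Calcr and Ppp1r9a was not tested.

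The 5 gene symbols whose level was most like that of Peg10 over the 10 pools were taken by Pearson's r of log2 CPM among 12263 genes. They were Galnt10 and mFLJ00205, both at 0.997, the relaxin family receptor gene Rxfp3 at 0.994, Zbtb40 at 0.992 and Inadl at 0.991. Whether Galnt10 and mFLJ00205 are separate genes was not checked. The 10 pools fall into 3 tissues, so these values mainly say that the genes share an order of tissues. No such list was made for Asb4, which has no value in PFC.

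The parental effect was also compared between the sexes and between embryo and adult, each as an interaction term of the fit. Between male and female adult pools 0 of the 5 members tested differed (edgeR), as did 0.0% of autosomal genes tested. An unadjusted edgeR p under 0.05 was reached by 490 of 11269 genes, Peg10 and Dlx5 among them, which is no more than chance alone gives. Between E15 and adult pools Peg10 differed, 1 of 5 members, against 0.362% of autosomal genes (edgeR adjusted p = 0.0217), with the larger maternal share in E15. No size is given, since 4 of the adult pools had 0 maternal reads and the fitted value depends on the prior count. Sgce did not pass (edgeR adjusted p = 0.0747). Age and tissue cannot be told apart in this term, since E15 is whole brain and the adult pools are dissected regions. With 1 pool per cross in E15, its p-values measure the spread between adult pools alone. The Peg10 call was lost with X-linked genes in the fit (edgeR adjusted p = 0.832), with the deepest base alone (0.283) and without the POA F1r female pool (0.0611).

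The maternal reads of Peg10 in E15 were themselves uneven. A single base, at chr6:4707201, gave 10 of the 39 maternal reads of the F1r pool from 29 reads there, and over the other 14 bases the share was 0.683% in F1i and 1.58% in F1r. In the F1r pool the maternal base is that of B6. The CAST parental library of E15 had the B6 base in 11 of 648 reads of Peg10, or 1.70%, and the B6 library the CAST base in 0 of 1008. Snrpn and Peg3, imprinted genes elsewhere that are read from the father, had the same order of maternal shares, 0.525% in the E15 F1i pool and 2.10% in F1r for Snrpn and 0.110% and 1.31% for Peg3. In Gtl2, read from the mother, the paternal share was 4.83% in F1i and 0.682% in F1r, so the B6 base was again the more frequent minor base. The part of such reads in the Peg10 difference was not tested.

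The E15 libraries of the parental strains, summed to 1 sample per strain, were set beside the F1 alleles as a description, as log2 CAST over B6 reads with a pseudocount of 1. The value between the strains was also scaled to the total reads of each strain, and the F1 values were not. Casd1 had more CAST reads in both, at 0.83 between the strains and 0.52 as the mean of the F1 crosses. The F1 value rests on the base at chr6:4592614, since the other 10 bases had 613 CAST and 615 B6 reads. Peg10 was at -0.35 and -0.79, Sgce at -0.07 and -0.31, Ppp1r9a at 0.08 and -0.03 and Asb4 at -0.19 and -0.63. Calcr, with 20 and 30 parental reads, was at -0.27 and 0.23, and Dlx5 at -0.79 and -0.24. For Peg10, Sgce and Asb4 each cross by itself was far from these values, for example -7.10 in F1i and 5.52 in F1r for Peg10. In genes read mainly from a single parent, the mean over both crosses rests largely on the reads of the minor base. For Peg10 these were 15 CAST reads in F1i and 39 B6 reads in F1r, so the mean is not a value of strain alone.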

How the data were processed

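Per the labels' protocols, total RNA with an integrity number above 9 was reverse transcribed with random hexamers and sequenced for 36 cycles. The submitters' processing notes name Novoalign and the mm9 assembly, and the version and settings are not given in the sources used here. The deposited tables hold the authors' read counts with the CAST and the B6 base at each listed base, summed by the authors over technical replicates (4 libraries per E15 pool, 2 per adult pool), so that library spread is lost.

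The labels name the mother and father of each cross in words. The abbreviation beside those of F1r reads F1i, and titles and named parents were followed.

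Repeated listings were dropped (2073 in E15, 1056 in POA, 911 in PFC), and a gene's reads were summed over the bases of its transcript with most reads. In the main fits across regions, a base listed in only some of them counted as having no reads in the others. A base is listed only where every pool of the region had a read, which leaves out genes silent in a pool. A read over 2 bases is counted at each, so reads are not independent.

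Genes averaging 20 or more informative reads over the pools were tested, with Benjamini-Hochberg adjustment over all of them. Adult pools were fitted with edgeR 4.0.16 (R 4.3.3), quasi-likelihood, allele by cross. In E15, with 1 pool per cross, Fisher's exact test covers counting error only, and its log2 value adds 0.5 to each cell. Region, sex and age terms were fitted on autosomal genes, the age term setting E15 whole brain against both adult regions. DESeq2 1.42.0, other normalizations and filters, the deepest base alone and leaving out each pool were alternatives. Single-pool intervals are 95% Clopper-Pearson, and a count of 0 is given the limit of 3 reads. The tests were checked on simulated counts with moderate changes. The simulation held no gene read almost wholly from 1 parent, no X-linked sex effect and, for Fisher's exact test, no spread between pools. It does not cover those cases. All 7 members are named, by rule, with the 5 gene symbols most like Peg10 in level. The members and lists were chosen with earlier results of these data known. Gene positions are from GENCODE vM1. The adult parental-strain tables were not used here.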

Additional observations from a re-analysis of the deposited data

Results flagged for a closer look

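In Asb4 the POA F1i male pool, at a maternal share of 92.4%, stood apart from the other 3 POA pools, which lay between 94.6% and 95%. Its gap to the nearest pool was 0.854 of the whole range, above Dixon's critical value for 4 values.

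In Dlx5 the POA F1r female pool had a CAST share of 44.9%, below the 64.9% to 68.3% of the other POA pools (ratio 0.855). This pool had 89 reads of the gene.

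For Peg10 in PFC the F1r male pool, at a maternal share of 1.33%, was the single pool with a maternal read (ratio 1.0), and that read was 1 of 75.

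These were 3 of 36 groups of 4 pools examined. The usual rate of about 1 group in 20 set apart by chance does not hold for all of them. The CAST share of genes read from 1 parent splits by cross and could set no pool apart. A single pool with maternal reads, where the others have none, always gives a ratio of 1.0.

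The parental effect of Ppp1r9a differed between POA and PFC by 1.03 in log2 (edgeR adjusted p = 2.81e-05), and that of Peg10 between E15 and adult pools by a fitted 3.50 (edgeR adjusted p = 0.0217), a size that depends on the prior count because 4 adult pools had 0 maternal reads of Peg10. No explanation of either was tested.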

How the results depend on the processing

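Of 680 member values under alternatives, 631 kept their side of the threshold and direction, 40 lost a call, 8 gained one and 1 reversed: Casd1 between E15 and POA levels, -0.08 with all pools, 0.35 without the E15 F1i pool (edgeR adjusted p = 0.0445) and -0.56 without the E15 F1r pool. In the following, the number after "for" is the count under the settings of the report, and the cause of each change was not tested. With autosomal genes alone, genes with a parental call numbered 127 for 47 in POA, 49 for 32 in PFC and 80 for 47 in all adult pools, and genes with a strain call 3283 for 1550 in POA (members 2 for 1) and 3971 for 2530 in PFC. With the deepest base alone, member calls were 0 for 1 for strain in POA (genes 385), 1 for 2 in PFC (fewer members pass the minimum), 3 for 5 in E15 (genes 469 for 847), 0 for 1 between regions and 0 for 1 between ages (genes 93 for 43). With X-linked genes in the fit, they were 0 for 1 between regions (genes 3 for 35) and 0 for 1 between ages (genes 6 for 43). With edgeR over all pools E15 had 2 member calls for 5 and 50 genes for 847. Without the bases of uneven strain share in Ppp1r9a and Casd1, chosen after the values were seen, strain calls among members were 0 for 1 in POA and 0 for 1 in PFC. DESeq2 called 1 adult member for 2, with no adjusted p for Sgce and Dlx5. With at least 50 reads, single-base calls in the domain were 17 for 31 in E15, 11 for 29 in POA and 1 for 2 in PFC.

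Leaving out each pool in turn, member calls ranged from 2 to 5 in POA, 0 to 2 in PFC, 2 to 2 in adults, 0 to 0 (POA) and 0 to 1 (PFC) for strain, 1 to 1 between regions, 1 to 2 between ages, 0 to 0 between sexes, and 1 to 3 (POA against PFC), 3 to 5 (E15 against POA) and 1 to 2 (E15 against PFC) for level. Genes called ranged from 19 to 157 in POA and 10 to 51 in PFC, fits on autosomes alone included, from 0 to 469 and 2 to 1287 for strain in POA and PFC, 13 to 91 between regions, 31 to 61 between ages and 0 to 21 between sexes. No E15 pool could be left out of the parental tests, since each cross has 1. No paired analysis was possible because the replicate numbers in the labels belong to technical replicates that the authors summed, and the columns carry none; the labels do not say whether the POA and PFC pools of 1 cross and sex came from the same animals. Depth limits Sgce, with 37 to 114 reads per adult pool, and Peg10 in PFC, where a count of 0 allows maternal shares of 3.75% to 4.05%.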
